A study of Homo sapiens with 23 samples.

Results

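The protocadherins are the largest family within the cadherins, cell-surface proteins whose extracellular repeats bind calcium. They were taken here as every protein-coding gene whose symbol starts with PCDH, without Y-linked genes, which gave 65 genes among the 61806 genes of the first count table and the 42901 genes of the second. Of these, 15 belong to the alpha cluster, 16 to the beta cluster and 22 to the gamma cluster, and 12 are non-clustered genes that lie outside these clusters. The 4 delta-1 genes among the non-clustered are PCDH1, PCDH7, PCDH9 and PCDH11X, the 5 delta-2 genes are PCDH8, PCDH10, PCDH17, PCDH18 and PCDH19, and PCDH12, PCDH15 and PCDH20 make up the other 3.

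RNA was sequenced from A549, an established human lung carcinoma epithelial line, after depletion of THUMPD3, an RNA methyltransferase that modifies guanosines in transfer RNA. The first table holds 17 libraries in 3 comparisons of a knockdown with its own control, and the second holds 6 libraries of one knockdown sequenced more deeply. In the first table, shD3 #1 and its control sh1Control had 3 libraries each, shD3 #4 and sh4Control had 3 each, and siD3 #3, which the sample titles call siTHUMPD3, had 3 against 2 of siControl. The second table holds 3 deep shD3 #1 and 3 deep sh1Control libraries, and the labels do not say whether these came from the same cultures as the first ones. All cells were of A549 background, the controls are labelled wild type and the knockdown cells THUMPD3 knockdown. The hairpins shD3 #1 and shD3 #4 were carried by a lentiviral vector and switched on with doxycycline in puromycin-selected cells, so the selected pools are the model, and the siRNA was transfected into unmodified cells. The study describes control cells as untreated, and which agents the control cells of each hairpin received was not given in the sources used here. The libraries of a group are labelled as biological replicates.

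The clustered protocadherins lie in a row on chromosome 5, and each alpha or gamma gene has its own first exon and promoter, which is spliced to constant exons shared by the whole cluster. Neurons choose a few of these promoters per cell, with CTCF and cohesin looping enhancers to the chosen ones, and the resulting combinations of proteins let a neuron tell its own branches from those of others. The non-clustered delta protocadherins bind cells to one another more weakly than classical cadherins and signal to the cytoskeleton, and several of them, PCDH10 among them, are often silenced in carcinomas.

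The alpha genes span chr5:140786136-141012347, the beta genes chr5:141051374-141249365 and the gamma genes chr5:141330514-141512977, all on the plus strand of GRCh38.p14. Only reads that overlap a single gene were counted, and the constant exons are annotated to every gene of their cluster. By the exons of GENCODE 44, the counts of an alpha gene therefore come from a median of 53.4% of its exon bases, and those of a gamma gene from a median of 56.15%, while for the beta genes, which have no constant exons, the median was 100%. The deep table lists genes by symbol, and 27502 of its 42901 genes were found in GENCODE 44. These shares may therefore differ in the deep table. In GENCODE 44, PCDH20 shares all but 8.74% of its exon bases with another annotated gene, so its near-empty counts say little about it.

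RefSeq promoter windows of 300 bases, from 250 before to 50 after the start, were matched for 57 of the 65 genes. They are shown because a short core, CGCT, sits just before the start in nearly every clustered promoter, with flanks that differ between the clusters. PCDHA11 and PCDHA12 stand for alpha genes that were higher in several knockdowns, PCDHB2 for the beta gene with the most reads and PCDHB5 for the one called lower, PCDHGB4 and PCDHGB5 for the gamma genes with the clearest difference between hairpins, and PCDHAC2 for the C-type gene with the most reads in the alpha cluster. Each window is 26 bases long, on the plus strand of GRCh38.p14, with capitals marking the CGCT copy nearest to 60 bases before the start.
PCDHA4, chr5:140806981-140807006: gagccacatgatgtCGCTctttacca
PCDHA11, chr5:140868885-140868910: taggcgcaaggtgtCGCTctttactt
PCDHA12, chr5:140875246-140875271: cagtcacatgatgtCGCTctacactc
PCDHAC2, chr5:140966421-140966446: ctgagccctcctacCGCTccctttcc
PCDHB2, chr5:141094546-141094571: gagacgcggggtggCGCTgcagcctt
PCDHB4, chr5:141121725-141121750: aagacgcagggtggCGCTgcaggcta
PCDHB5, chr5:141135181-141135206: aggacgcctggtggCGCTgcaggcta
PCDHGA2, chr5:141338705-141338730: aggcctctgagcgtCGCTgttgacca
PCDHGB4, chr5:141387619-141387644: ctgactctgggcgcCGCTgttggcca
PCDHGB5, chr5:141397865-141397890: ctgactctgggcgcCGCTgttggcca
The windows of PCDHGB4 and PCDHGB5 are the same sequence, and that of PCDHAC2 shares little with its neighbours beyond the letters CGCT. The PCDHAC2 promoter holds 3 copies of CGCT on the plus strand, and the copy shown was picked by position alone. A CGCT lay 10 to 100 bases before the start in 26.6% of all promoters. The copy marked in PCDHAC2 therefore need not be the core shared by the other windows.

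Searched on both strands, CGCT was present in 12 of 13 matched alpha promoters (92.3%), 14 of 14 beta promoters, 20 of 20 gamma promoters and 9 of 10 non-clustered promoters, against 72.0% of 27195 promoters of all genes. Such a short motif is common, and its presence does not set the clustered promoters apart from the non-clustered ones. On the given strand, a copy lay 10 to 100 bases before the start in 92.3% of alpha, 92.9% of beta and 95% of gamma promoters, against 2 of 10 non-clustered promoters and 26.6% of all promoters. A further 3 longer forms that contain the core were then searched on both strands, each written down after the windows had been read. GATGTCGCT was found in 9 of 13 alpha promoters and in 0.129% of all promoters. GGTGGCGCT was found in 13 of 14 beta promoters and in 0.621% of all. CGCTGTT was found in 13 of 20 gamma promoters and in 2.74% of all. The alpha and beta forms were in 0 promoters of the other 2 clusters, the gamma form was in 1 of 14 beta promoters, and all 3 were in 0 of 10 matched non-clustered promoters. These are matches of letters and do not show that a protein binds there.

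**Figure D1:**
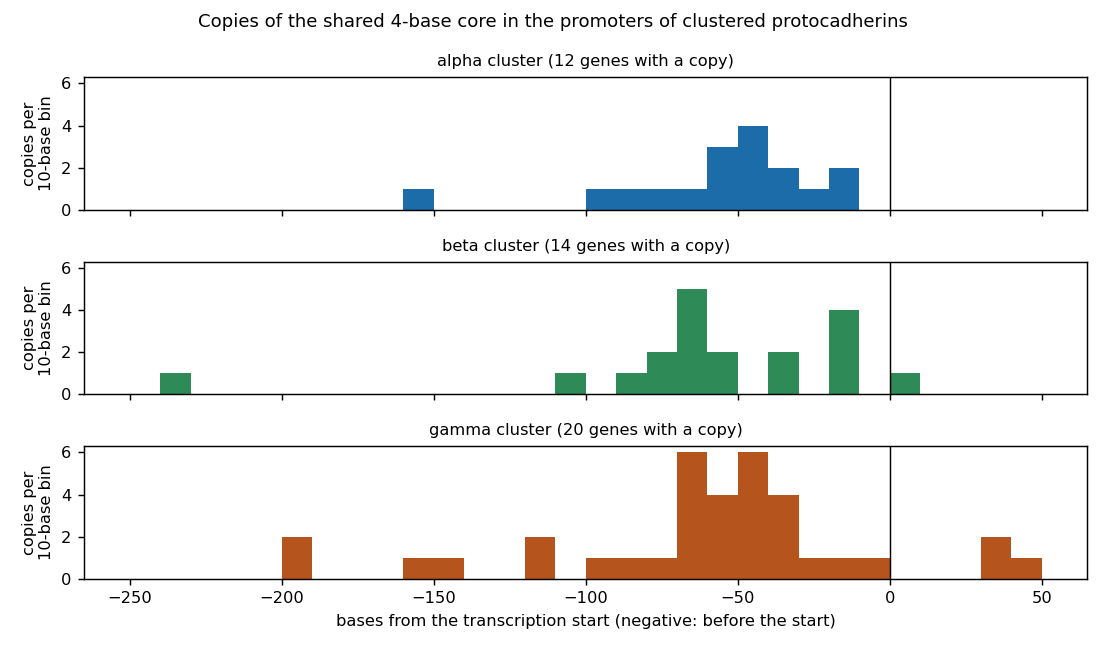
Position of every CGCT copy in the promoter windows of the clustered protocadherins, in bases from the transcription start (x axis, negative values lie before the start), as the number of copies per bin (y axis), with 1 panel per cluster. Copies gather in the stretch 10 to 100 bases before the start, where 92.3% of alpha, 92.9% of beta and 95% of gamma promoters have one.

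Total counts ran from 9854294 to 22101059 per library in the first table and from 27285889 to 59974740 in the deep one, and levels are given below as CPM, the counts scaled to a common library size with TMM factors. THUMPD3 itself was at 59.6 to 62.5 CPM in sh1Control and 30.5 to 32.9 in shD3 #1, at 58.6 to 66.0 against 19.2 to 20.2 for shD3 #4, at 65.7 and 68.5 against 10.5 to 12.4 for siD3 #3, and at 53.0 to 55.9 against 24.9 to 28.3 in the deep libraries. The epithelial keratins KRT8 and KRT18 were abundant in every library, whereas the alveolar surfactant genes SFTPC and SFTPB were at or near 0 and the neuronal genes NEUROD1 and STMN2 had no read in any library. The 4 alveolar type 2 markers, with NAPSA and ABCA3 besides these surfactant genes, summed to 41.1 to 68.8 CPM in the first table. In the deep libraries their sum was 164 to 202 CPM. The 5 epithelial markers, KRT8, KRT18, KRT19, EPCAM and CDH1, summed to 4546.5 to 4777 CPM in sh1Control and 5519 to 5699 in shD3 #1. In the deep libraries the epithelial sum was 3718 to 4340 CPM against 5338 to 5448. For shD3 #4 it was lower in the knockdown, at 5020 to 5236 against 3908 to 4291, and for siD3 #3 the groups overlapped. The siD3 #3 library of replicate 3 stood apart: its counts differed from those of the other 2 by a chi-square of 30.4 and 34.6 per degree of freedom, against 1.82 to 16.4 for the other 20 replicate pairs. The main results for siD3 #3 are therefore also given without it.

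A gene was called higher or lower when edgeR's quasi-likelihood test gave a Benjamini-Hochberg adjusted p below 0.05 over all genes tested and the change was at least 1.5-fold, or 0.585 on the log2 scale. In shD3 #1, 18 of 38 tested protocadherins were called higher, where 14.5% of all 16456 genes tested were, and 2 were called lower, where 14.6% were. Among the deep libraries, 39 of 55 were called higher, against 15% of 18763 genes, and 0 lower, against 14.1%. In shD3 #4, 7 of 38 were called higher, against 8% of 16493 genes, and 0 lower, against 4.5%. In siD3 #3, 17 of 43 were called higher, against 12.5% of 17032 genes, and 1 lower, against 9.42%. The 2 zeros for lower calls were also zeros with DESeq2, and at an unadjusted p below 0.05 edgeR had 1 lower gene in the deep libraries and 0 in shD3 #4.

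Counted by library, every knockdown value lay above every control value for 18 of the 38 tested protocadherins in shD3 #1 and below for 3, where 30.8% and 31.2% of all genes did. The same counts were 45 and 1 of 55 in the deep libraries (33.2% and 34% of all genes), 14 and 0 of 38 in shD3 #4 (24.7% for each direction) and 28 and 2 of 43 in siD3 #3 (30.5% and 29.5%).

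The median log2 fold change of the tested protocadherins was 0.63 in shD3 #1, 0.94 in the deep libraries, 0.34 in shD3 #4 and 0.97 in siD3 #3, beside medians of -0.006, -0.015, 0.008 and 0.026 over all genes tested. Many protocadherins are close to the limit of detection, and 8, 4, 3 and 17 of the tested ones in these comparisons reached the count minimum through the knockdown libraries alone, so the tested genes are not all 65 and their counts and medians lean upwards. In siD3 #3, the number called higher rested on the small control group: it was 6 without either siControl library, 10 without siD3 #3 replicate 1, 13 without replicate 3 and 9 with DESeq2. Without replicate 3, 37 protocadherins were tested, and 14.1% of all genes were called higher and 10.9% lower. PCDH1 (2.52), PCDH7 (1.21), PCDHA10 (1.01), PCDHA11 (1.38), PCDHA12 (1.21), PCDHB2 (0.61), PCDHB6 (1.06) and PCDHB11 (2.24) were still called higher there, with log2 fold changes in brackets and edgeR's adjusted p from 3.08e-05 to 0.0466, PCDHA4 was called as well (0.59), and PCDHB4, PCDHGB2 and PCDHGB7 were no longer tested. In shD3 #4 it was 11 without sh4Control replicate 3. RNA from a bulk culture cannot separate fewer cells expressing a gene from less RNA of it per cell.

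Across the 4 comparisons, 56 protocadherins were tested at least once and 48 were called at least once. Over all genes tested, 29.1% were called in shD3 #1, 29.1% in the deep libraries, 12.5% in shD3 #4 and 22% in siD3 #3. The shares of all genes called at least once, or higher in all 4, were not counted, so these counts of protocadherins have no base to set them against. PCDH10, PCDHA11 and PCDHB11 were higher in all 4, of which the deep libraries repeat the shD3 #1 hairpin, and 0 genes were higher in one comparison and lower in another. The only genes called lower anywhere were PCDH9 and PCDHB5, the latter named after its values had been seen. In the controls of the first table, ordered by the mean CPM per kilobase of exon that no other gene shares, PCDH9 came to a mean of 7.56 ± 1.71 (SD, n = 8), followed by PCDHAC2 at 6.55 ± 0.902, PCDHAC1 at 3.84 ± 0.618, PCDHA12 at 3.75 ± 0.501 and PCDHB2 at 1.76 ± 0.297. The ranges of PCDH9 and PCDHAC2 overlapped, as did those of PCDHAC1 and PCDHA12, and the order of the first 2 depended on the control: PCDH9 lay above PCDHAC2 in all 6 hairpin controls, but in siControl PCDHAC2 was at 8.11 and 5.53 CPM per kilobase and PCDH9 at 5.03 and 4.84. PCDHAC2 lay wholly above PCDHAC1 and PCDHA12 wholly above PCDHB2.

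PCDH10, a delta-2 protocadherin that recruits the actin-regulating WAVE complex and acts as a tumour suppressor in several carcinomas, was the one non-clustered gene called higher in all 4 comparisons. Its controls were below the count minimum in every library of the first table and in all but 1 of the deep ones, so PCDH10 was tested only because the knockdown libraries were high. It lies on chromosome 4 at 133149294-133208606. Its levels were 0.415, 0.290 and 0.555 CPM in sh1Control and 2.68, 2.93 and 2.65 in shD3 #1, and the groups were far apart. PCDH10 rose by 2.68 ± 0.28 (log2 fold change ± SE, adjusted p = 6.17e-07 with edgeR's quasi-likelihood test). In the deep libraries PCDH10 was at 0.221, 0.218 and 0.325 CPM against 1.99, 2.23 and 2.16, a log2 fold change of 3.04 ± 0.25 (adjusted p = 7.74e-08). The deeper controls held 13, 11 and 18 counts, so the gene was low but present before knockdown. With shD3 #4, PCDH10 went from 0.160, 0.382 and 0.368 CPM to 0.804, 1.38 and 0.918, a rise of 1.72 ± 0.39 (adjusted p = 0.00081). Here too every knockdown library lay above every control.

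In siD3 #3, PCDH10 was at 0.163 and 0.346 CPM in siControl and 0.896, 1.37 and 2.79 in the knockdown, with replicate 3 the highest. The fold change was 2.74 ± 0.69 on the log2 scale (edgeR's adjusted p = 0.0183) and 2.15 without replicate 3 (adjusted p = 0.00786). The call for PCDH10 was lost without siControl replicate 1 (2.25, adjusted p = 0.140) and without siControl replicate 2 (3.30, adjusted p = 0.0702), each of which leaves 1 control, and both groups had few counts. The rise of PCDH10 did not differ detectably between the 3 knockdowns of the first table (interaction adjusted p = 0.387), with a difference of 0.96 ± 0.67 between shD3 #1 and shD3 #4.

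PCDH9, a delta-1 protocadherin on chromosome 13 at 66302834-67230445, supplied 35.5 to 70.3% of the protocadherin reads of a library and was called lower in shD3 #1 and siD3 #3. It was at 287, 271 and 263 CPM in sh1Control and 167, 165 and 167 in shD3 #1, and fell by 0.72 ± 0.06 on the log2 scale (edgeR's adjusted p = 3.73e-08). In siD3 #3 PCDH9 went from 156 and 150 CPM to 111, 93.5 and 92.0, and fell by 0.63 ± 0.10 (adjusted p = 0.00325). The groups did not overlap in either comparison. Without siD3 #3 replicate 2 the change of PCDH9 was -0.584 and just missed the 1.5-fold limit, and without replicate 3 it was -0.59 (adjusted p = 0.00085).

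With the other hairpin PCDH9 stood at 240, 234 and 271 CPM in sh4Control and at 321, 312 and 295 in shD3 #4, so that the knockdown libraries were the higher ones, by 0.32 ± 0.07 on the log2 scale (edgeR's adjusted p = 0.000518), less than the 1.5-fold limit. In the deep libraries of shD3 #1 PCDH9 was at 387, 404 and 381 CPM against 360, 324 and 348, a change of -0.18 ± 0.05 (adjusted p = 0.00363), again short of the limit and smaller than in the first libraries of the same hairpin. Within the first table the effect on PCDH9 differed between knockdowns (interaction adjusted p = 1.47e-07), by -1.04 ± 0.11 between shD3 #1 and shD3 #4 and by -0.93 ± 0.11 between siD3 #3 and shD3 #4.

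The share of all protocadherin counts that came from PCDH9 moved with it and with the clustered genes. It was 66.0 to 68.0% in sh1Control and 44.2 to 47.1% in shD3 #1, 68.8 to 70.3% against 50.7 to 52.6% in the deep libraries, and 55.8 to 60.5% against 35.5 to 39.8% in siD3 #3. For shD3 #4 the share was 67.1 to 69.3% in the controls and 66.7 to 68.8% in the knockdown, and the groups overlapped.

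PCDH1, a delta-1 protocadherin of airway epithelium that serves as an entry receptor for some hantaviruses, lies just past the gamma cluster on the opposite strand, at chr5:141853090-141879246. Its levels were 3.22, 3.25 and 4.08 CPM in sh1Control against 5.69, 5.85 and 6.52 in shD3 #1, and 2.36, 2.44 and 3.03 against 8.21, 6.29 and 7.95 in the deep libraries. PCDH1 rose by 0.76 ± 0.15 (edgeR's adjusted p = 0.000495) and by 1.52 ± 0.14 (adjusted p = 2.04e-07). The rise was steepest in siD3 #3, where PCDH1 went from 2.07 and 1.11 CPM to 9.67, 9.25 and 9.36, a log2 fold change of 2.53 ± 0.25 (adjusted p = 0.00028).

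With shD3 #4, by contrast, PCDH1 was at 2.66, 2.58 and 3.68 CPM in the controls and 2.08, 2.75 and 2.81 in the knockdown, with overlapping groups and a log2 fold change of -0.23 ± 0.19 (edgeR's adjusted p = 0.357). The effect on PCDH1 differed between the 3 knockdowns (interaction adjusted p = 6.22e-07), and every pair differed: siD3 #3 exceeded shD3 #4 by 2.77 ± 0.29 and shD3 #1 by 1.78 ± 0.29, and shD3 #1 exceeded shD3 #4 by 0.99 ± 0.26.

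PCDH7, the remaining well-detected delta-1 gene and a cell-surface protein found on many carcinoma cells, had another order. It was at 0.958, 0.906 and 1.16 CPM in sh4Control and 3.36, 2.81 and 2.81 in shD3 #4, and at 1.74 and 1.11 in siControl and 3.77, 2.97 and 4.28 in siD3 #3. PCDH7 rose by 1.58 ± 0.22 (edgeR's adjusted p = 1.75e-06) and by 1.34 ± 0.29 (adjusted p = 0.010), and lost the siD3 #3 call without siControl replicate 2 (1.07, adjusted p = 0.0753). For shD3 #1 PCDH7 stood at 1.10 to 1.51 CPM in controls and 0.798 to 1.22 in the knockdown, and for the deep libraries at 1.63 to 1.88 and 1.63 to 2.27. Neither of these was called, with log2 fold changes of -0.40 ± 0.28 and 0.15 ± 0.18, and the groups overlapped. The effect on PCDH7 was smaller in shD3 #1 than in shD3 #4 by 1.98 ± 0.35, where both sizes are on the log2 scale (interaction adjusted p = 0.000181).

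**Figure D2:**
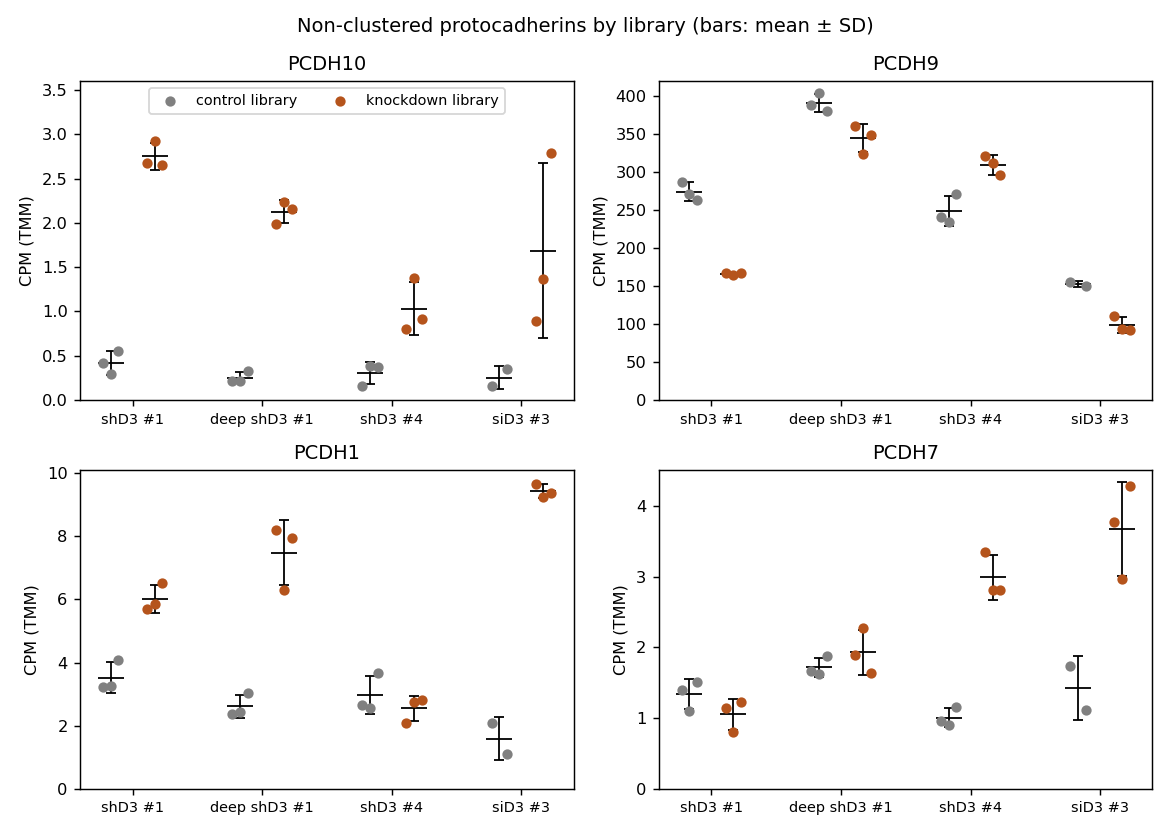
Levels of the 4 best-detected non-clustered protocadherins in CPM after TMM scaling (y axis) for each library of the 4 comparisons (x axis), with grey and orange points for control and knockdown libraries and bars for the mean ± SD. PCDH10 is higher in the knockdown in all 4, PCDH9 runs from 263 to 287 CPM in sh1Control against 165 to 167 in shD3 #1, and PCDH1 reaches 9.25 to 9.67 CPM in siD3 #3.

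The remaining non-clustered genes were at or near the limit of detection. PCDH12, a protocadherin of endothelium and trophoblast, had no read in either siControl library and 16, 19 and 18 counts in siD3 #3, at least 9.85-fold higher when the controls are set to 3 counts over the group. It was called higher there (edgeR's adjusted p = 0.00241), and in the hairpin comparisons PCDH12 had at most 1 count per library. Without replicate 3 the call for PCDH12 stood (adjusted p = 0.000965). The endothelial markers PECAM1 and CDH5 together were at 0.139 and 0.163 CPM in siControl and 0.448 to 1.08 in siD3 #3. Their sum was also higher where PCDH12 was at or near 0, at 0.316 to 0.426 CPM against 0.851 to 1.55 for shD3 #4 and 0.317 to 0.343 against 0.499 to 1.21 in the deep libraries, and overlapped between groups in shD3 #1. Their part in the PCDH12 level was not tested. PCDH19, a delta-2 gene mutated in an X-linked epilepsy, had 9, 4 and 10 counts in the deep controls and 23, 10 and 11 in the deep shD3 #1 libraries. PCDH19 too reached the count minimum through the knockdown libraries alone. The log2 fold change of PCDH19 was 1.73 ± 0.46 (adjusted p = 0.00462), and the call was lost without deep shD3 #1 replicate 1 (1.24, adjusted p = 0.0517).

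PCDH17 and PCDH18, both delta-2 genes, were below the count minimum in every comparison and were not tested against controls. PCDH17 had 0 counts in all 6 sh1Control and deep sh1Control libraries, 6, 7 and 5 in shD3 #1 and 4, 4 and 5 in deep shD3 #1, which is at least 7.76-fold and at least 7.58-fold higher against 3 counts over the control group. With shD3 #4 PCDH17 had no read in any of the 6 libraries. PCDH18 had 1, 3 and 3 counts in sh4Control and 15, 12 and 6 in shD3 #4, against 4, 5 and 3 and then 0, 3 and 2 for shD3 #1. PCDH15 had 2, 1 and 1 counts in sh4Control and 6, 9 and 11 in shD3 #4, without overlap, and 0 to 7 counts in the libraries of the other comparisons. PCDH8 had no read in any of the 23 libraries, and PCDH11X had 0 to 4 counts per library and PCDH20 0 to 1.

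Within the alpha cluster, 5 of 12 tested genes were called higher in shD3 #1, 12 of 15 in the deep libraries, 3 of 13 in shD3 #4 and 5 of 13 in siD3 #3, and 0 were called lower in any of the 4, by edgeR, by edgeR at an unadjusted p below 0.05 or by DESeq2. Over all genes edgeR called 14.5%, 15%, 8% and 12.5% higher in that order, and 14.6%, 14.1%, 4.5% and 9.42% lower. Of the tested alpha genes, 1, 0, 0 and 4 in the same order reached the count minimum through the knockdown libraries alone. PCDHA11 was the alpha gene higher in all 4 comparisons. Its levels were 4.36, 3.83 and 4.13 CPM in sh1Control and 7.10, 6.71 and 6.11 in shD3 #1. With shD3 #4 PCDHA11 went from 2.87, 3.48 and 5.31 CPM to 6.19, 6.77 and 8.20, and with siD3 #3 from 3.38 and 1.87 to 6.98, 7.08 and 5.98. In each of these comparisons all knockdown libraries of the gene exceeded all controls.

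On the log2 scale PCDHA11 rose by 0.70 ± 0.14 in shD3 #1 (edgeR's adjusted p = 0.000396), 0.85 ± 0.17 in shD3 #4 (adjusted p = 0.000196) and 1.32 ± 0.26 in siD3 #3 (adjusted p = 0.00690). The deep libraries had PCDHA11 at 5.34, 5.38 and 4.85 CPM against 9.23, 7.94 and 8.84, a rise of 0.74 ± 0.10 (adjusted p = 1.18e-05). The call for PCDHA11 stood in each comparison when any single library was left out, and its effect did not differ detectably between knockdowns (interaction adjusted p = 0.206).

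PCDHA12, the alpha gene next along the chromosome, rose by 1.05 ± 0.12 in shD3 #1, from 8.41, 11.1 and 10.5 CPM to 22.2, 22.4 and 16.8 (edgeR's adjusted p = 2.41e-06). In siD3 #3 PCDHA12 went from 10.3 and 7.27 CPM to 21.5, 19.9 and 18.2, a rise of 1.17 ± 0.17 (adjusted p = 0.00191), and in the deep libraries it rose by 0.83 ± 0.07 (adjusted p = 5.56e-08). In shD3 #4 PCDHA12 was at 9.58, 9.63 and 10.7 CPM and then 14.9, 14.9 and 13.4, without overlap, and the difference of 0.53 ± 0.09 (adjusted p = 5.52e-05) did not reach 1.5-fold. The smaller effect on PCDHA12 in shD3 #4 passed the test of the difference against shD3 #1, which was 0.51 ± 0.19 (adjusted p = 0.0353), and against siD3 #3, which was 0.64 ± 0.20 (adjusted p = 0.0222).

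PCDHAC2 is a C-type gene, one of those at the end of a cluster that neurons transcribe from both chromosomes without the choice made among the others. PCDHAC2 rose in shD3 #1 from 22.2, 23.1 and 22.6 CPM to 32.4, 35.0 and 36.1, by 0.61 ± 0.07 (edgeR's adjusted p = 2.35e-06). It rose in the deep libraries from 26.7, 25.3 and 28.8 CPM to 42.9, 43.8 and 40.8, by 0.66 ± 0.06 (adjusted p = 2.02e-07). Without shD3 #1 replicate 3 the first of these was 0.58 and just short of 1.5-fold. In shD3 #4 PCDHAC2 was at 18.1 to 22.7 CPM in controls and 19.1 to 21.7 in the knockdown, and in siD3 #3 at 26.7 and 18.2 in controls and 19.3, 17.6 and 15.2 in the knockdown. Groups overlapped in both, with log2 fold changes of 0.06 ± 0.09 and -0.37 ± 0.18 (-0.30 without siD3 #3 replicate 3), and the effect on PCDHAC2 in siD3 #3 was below that in shD3 #1 by 0.97 ± 0.18 (adjusted p = 0.000199).

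The other alpha genes called in at least 2 comparisons were PCDHA4, PCDHA5, PCDHA10 and PCDHA13. PCDHA4, one of the alpha genes with the GATGTCGCT form in the window printed above, rose by 0.77 ± 0.06 in the deep libraries (edgeR's adjusted p = 7.67e-08) and by 0.64 ± 0.10 in shD3 #4 (adjusted p = 1.03e-05), the latter call being lost without sh4Control replicate 1 (0.56). PCDHA10 rose by 0.83 ± 0.21 in shD3 #4, 1.04 ± 0.33 in siD3 #3 and 0.66 ± 0.12 in the deep libraries, while its change in the first shD3 #1 libraries was -0.18 ± 0.25 with overlapping groups. The siD3 #3 call for PCDHA10 was lost with each of 4 single libraries left out, siControl replicates 1 and 2 and siD3 #3 replicates 1 and 2 (adjusted p from 0.0537 to 0.218). PCDHA5 and PCDHA13 rose in shD3 #1 by 0.61 ± 0.19 and 0.76 ± 0.25 and in the deep libraries by 1.01 ± 0.10 and 1.04 ± 0.14. In shD3 #1 the call for PCDHA5 was lost without sh1Control replicate 3 (0.40, adjusted p = 0.0846), shD3 #1 replicate 1 (0.53, adjusted p = 0.0635) or replicate 2 (0.53, adjusted p = 0.0535), and that for PCDHA13 without sh1Control replicate 1 (0.54, adjusted p = 0.0761).

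The beta genes are single-exon genes with no constant region. Of those tested, 2 of 6 were called higher and 1 lower in shD3 #1, 5 of 13 higher in the deep libraries, 2 of 8 in shD3 #4 and 6 of 9 in siD3 #3. DESeq2 called 0, 3, 1 and 2 of them higher in the same order, and the beta genes were the cluster with the fewest reads. Over all genes edgeR called 14.5%, 15%, 8% and 12.5% higher in that order, and 14.6% lower in shD3 #1. Of the tested beta genes, 0, 1, 2 and 6 reached the count minimum through the knockdown libraries alone. In siD3 #3 PCDHB4 and PCDHB11 were among these, so their calls there lean upwards. PCDHB11 was the beta gene higher in all 4 comparisons. It was at 0.623, 0.870 and 1.11 CPM in sh1Control and 1.41, 1.54 and 1.53 in shD3 #1, and at 0.639, 0.715 and 0.789 in sh4Control and 1.47, 1.43 and 1.72 in shD3 #4. With siD3 #3 PCDHB11 went from 0.708 and 0.346 CPM to 2.41, 2.86 and 1.84.

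These rises of PCDHB11 were 0.77 ± 0.28 (edgeR's adjusted p = 0.0283), 1.10 ± 0.27 (adjusted p = 0.0018) and 2.11 ± 0.39 (adjusted p = 0.00533) on the log2 scale, and the deep libraries gave 0.93 ± 0.29 (adjusted p = 0.0116). The shD3 #1 call for PCDHB11 was lost with DESeq2 (adjusted p = 0.0960), without sh1Control replicate 1 (0.119) or 2 (0.0665) and without shD3 #1 replicate 1 (0.0523) or 2 (0.0851), and the deep call without deep shD3 #1 replicate 2 (0.0532). The calls in shD3 #4 and siD3 #3 stood when any single library was left out. The rise in siD3 #3 exceeded that in shD3 #1 by 1.34 ± 0.44 (adjusted p = 0.0207).

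PCDHB2, the beta gene with the most reads, was at 7.58, 8.93 and 8.27 CPM in sh1Control and 12.8, 12.8 and 11.1 in shD3 #1, a difference of 0.58 ± 0.11 (edgeR's adjusted p = 0.000292) that just missed 1.5-fold. PCDHB2 rose by 0.61 ± 0.07 in the deep libraries (adjusted p = 3.99e-06) and by 0.61 ± 0.14 in siD3 #3 (adjusted p = 0.0126), and differed by 0.45 ± 0.13 in shD3 #4 (adjusted p = 0.00682). In all 4 comparisons the knockdown libraries of PCDHB2 lay above the controls. The calls of PCDHB2 sat close to the limit: the siD3 #3 one was lost without either siControl library and the deep one without deep shD3 #1 replicate 1 (0.57).

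PCDHB5 went from 5.19, 4.47 and 5.29 CPM to 3.21, 3.67 and 2.75 in shD3 #1 and fell by 0.60 ± 0.16 on the log2 scale (edgeR's adjusted p = 0.00456). The call for PCDHB5 was lost in 3 of the 6 fits that leave out 1 library, as the change was short of 1.5-fold without sh1Control replicate 1 (-0.57), sh1Control replicate 3 (-0.55) or shD3 #1 replicate 3 (-0.53). PCDHB5 was at 3.94 to 4.23 CPM against 3.93 to 4.34 in the deep libraries of that hairpin, with a change of -0.01 ± 0.12, and its groups also overlapped in shD3 #4 and siD3 #3, with changes of 0.03 ± 0.15 and 0.11 ± 0.19. Of the other beta genes called more than once, PCDHB4 rose in the deep libraries (0.76 ± 0.20) and in siD3 #3 (1.82 ± 0.49), PCDHB6 in shD3 #1 (0.74 ± 0.26) and siD3 #3 (1.10 ± 0.31), and PCDHB13 in shD3 #4 (1.24 ± 0.41) and the deep libraries (0.63 ± 0.26). The siD3 #3 calls of PCDHB4 and PCDHB6 were lost with DESeq2 and without either siControl library, that of PCDHB6 also without siD3 #3 replicate 1, and the shD3 #1 call of PCDHB6 with DESeq2, without any 1 of the 3 sh1Control libraries and without shD3 #1 replicate 2. PCDHB13 lost its call in shD3 #4 without sh4Control replicate 1, shD3 #4 replicate 1 or replicate 3, and in the deep libraries without any library but deep sh1Control replicate 2.

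**Figure D3:**
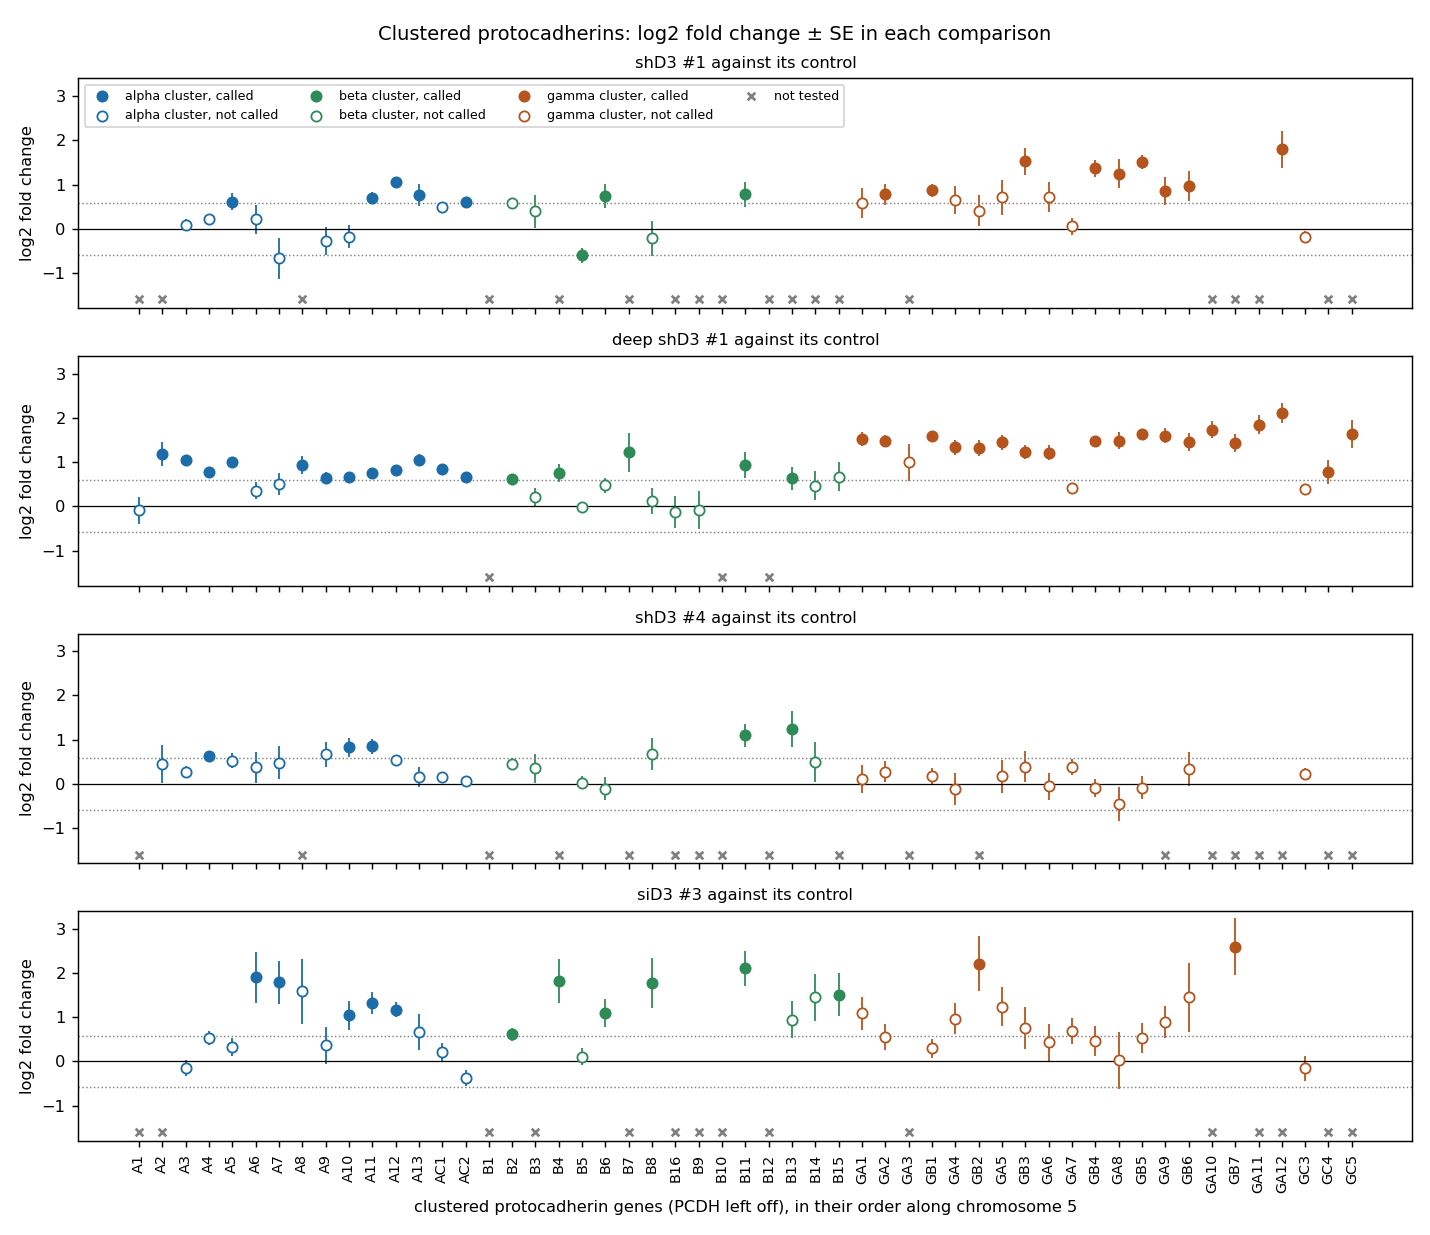
Log2 fold change ± SE (y axis) of every tested clustered protocadherin in chromosomal order (x axis), with 1 panel for each of the 4 comparisons and colours for the alpha, beta and gamma clusters. Filled points were called, open ones were not, crosses mark genes not tested and dotted lines the 1.5-fold limits. All 22 gamma genes lie above 0 in the deep shD3 #1 libraries with a median of 1.46, whereas the 13 gamma genes tested in shD3 #4 scatter around a median of 0.17.

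The gamma genes made up 9 of the 18 calls of shD3 #1, and 0 gamma genes were called in shD3 #4. In shD3 #1, 9 of 16 tested gamma genes were called higher, where 14.5% of all genes were, and in the deep libraries 19 of 22, where 15% were. Every one of the 22 was above its controls in all knockdown libraries of the deep set, where 33.2% of all genes were. Over all genes 8% were called higher and 4.5% lower in shD3 #4, and 12.5% higher in siD3 #3, or 14.1% without its replicate 3. In shD3 #4, edgeR called 0 of 13 in either direction, 0 at an unadjusted p below 0.05, and DESeq2 called 0. In siD3 #3, 2 of 16 were called higher, 7 at an unadjusted p below 0.05 and 1 with DESeq2, and without siD3 #3 replicate 3 edgeR called 0 of 13, with 2 higher at an unadjusted p below 0.05. The median log2 fold changes were 0.81, 1.46, 0.17 and 0.73 in that order, with 6, 1, 0 and 5 of the tested genes past the count minimum through the knockdown libraries alone. The difference between the knockdowns, tested directly, passed for fewer gamma genes than these calls. The effects of shD3 #1 and shD3 #4 differed at an adjusted p below 0.05 for 6 of 18 gamma genes, PCDHGB1, PCDHGB4, PCDHGA8, PCDHGB5, PCDHGA9 and PCDHGA12, where 39.4% of all genes did. Those of siD3 #3 and shD3 #1 differed for 1 of 18 (37.3% of all genes) and those of siD3 #3 and shD3 #4 for 2 of 18 (26.8%), and each of these shares of gamma genes was below that of all genes. Most gamma genes had few counts, which makes a difference harder to detect. The SE of the difference between the 2 hairpins was 0.24 for PCDHGC3, the gamma gene with the most reads, and 0.11 for CTCF. PCDHGB1, PCDHGA8 and PCDHGA12 did not pass edgeR's interaction test over the 3 knockdowns (adjusted p = 0.0731, 0.0694 and 0.0765).

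PCDHGB5, on chromosome 5 at 141397947-141512975 with its constant exons, was at 2.44, 2.32 and 2.92 CPM in sh1Control and 7.83, 7.50 and 6.31 in shD3 #1. In the deep libraries PCDHGB5 was at 5.66, 5.48 and 4.94 CPM against 15.7, 18.3 and 15.8. Every knockdown library lay far above all controls, and PCDHGB5 rose by 1.503 ± 0.16 (edgeR's adjusted p = 6.40e-07) and 1.63 ± 0.09 (adjusted p = 1.27e-09). With shD3 #4 PCDHGB5 went from 1.44, 1.29 and 2.31 CPM to 1.28, 2.01 and 1.49, and with siD3 #3 from 1.80 and 2.29 to 2.17, 2.40 and 4.18. These groups overlapped, with log2 fold changes of -0.08 ± 0.25 and 0.52 ± 0.34 (0.16 without siD3 #3 replicate 3). The effect on PCDHGB5 in shD3 #1 exceeded that in shD3 #4 by 1.58 ± 0.36 (adjusted p = 0.00161), and the difference from siD3 #3, 0.96 ± 0.37 in size, had an adjusted p of 0.0507.

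The printed windows of PCDHGB4 and PCDHGB5 are the same, but both genes were picked for printing by their difference between hairpins. A link between window and level was not tested. PCDHGB4 gave much the same values as PCDHGB5. It was at 2.34, 2.78 and 1.61 CPM in sh1Control and 6.43, 5.53 and 5.19 in shD3 #1, a rise of 1.37 ± 0.19 (edgeR's adjusted p = 1.49e-05), and rose by 1.47 ± 0.10 in the deep libraries (adjusted p = 1.39e-08). In shD3 #4 PCDHGB4 was at 1.81, 2.15 and 1.95 CPM and then 1.80, 1.95 and 1.84, with a change of -0.09 ± 0.20. The 2 hairpins differed in their effect on PCDHGB4 by 1.45 ± 0.32 (adjusted p = 0.00116). Reads that match near-identical stretches of several gamma genes were not assigned, so values of single gamma genes are less certain than those of unlike genes.

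PCDHGC3, the C-type gene with the most gamma reads, was not called in any comparison. It was at 7.01, 5.91 and 6.50 CPM in sh1Control and 5.69, 5.64 and 5.91 in shD3 #1 (log2 fold change -0.18 ± 0.13, edgeR's adjusted p = 0.252). The deep libraries had PCDHGC3 at 14.1, 12.7 and 12.9 CPM against 17.2, 17.9 and 16.9, a difference of 0.39 ± 0.07 (adjusted p = 0.000206) below the 1.5-fold limit. The changes of PCDHGC3 in shD3 #4 and siD3 #3 were 0.22 ± 0.14 and -0.16 ± 0.28 with overlapping groups.

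PCDHGA12 was called in both sets of shD3 #1 libraries, and in the first it was tested only because the knockdown libraries reached the count minimum. It went from 5, 4 and 3 counts in sh1Control to 12, 14 and 7 in shD3 #1 (log2 fold change 1.79 ± 0.41, edgeR's adjusted p = 0.00147). PCDHGA12 went from 26, 22 and 24 counts to 66, 46 and 68 in the deep libraries (2.12 ± 0.23, adjusted p = 1.22e-06). The other gamma genes called in both sets of shD3 #1 libraries were PCDHGA2, PCDHGB1, PCDHGB3, PCDHGA8, PCDHGA9 and PCDHGB6, with rises from 0.78 to 1.52 in the first libraries and from 1.23 to 1.60 in the deep ones. Of these the first-library calls of PCDHGA2 (without shD3 #1 replicate 1), PCDHGA9 (without sh1Control replicate 1 or 2, or shD3 #1 replicate 2 or 3) and PCDHGB6 (without sh1Control replicate 1 or 3, or shD3 #1 replicate 1 or 2) were lost when 1 library was left out, and all 6 stood in the deep libraries. In the first shD3 #1 libraries PCDHGB3, PCDHGA8 and PCDHGB6 too reached the count minimum through the knockdown libraries alone, so their calls there lean upwards. PCDHGB2 and PCDHGB7 were the 2 genes called in siD3 #3, with rises of 2.21 ± 0.62 and 2.60 ± 0.65 from 5 and 4 control counts in all. Both were tested there only because the knockdown libraries reached the count minimum. The call of PCDHGB2 was lost without either siControl library and that of PCDHGB7 without siControl replicate 1.

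Summed over each cluster, the gamma genes came to 27.8 to 29.5 CPM in sh1Control and 44.3 to 51.9 in shD3 #1, a ratio of means of 1.67, and to 49.5 to 51.4 against 113 to 121 in the deep libraries, a ratio of 2.30. For shD3 #4 the gamma sums were 20.3 to 26.04 and 22.1 to 27.8 CPM and overlapped. For siD3 #3 they were 20.8 and 21.1 CPM in the controls and 25.5 to 40.1 in the knockdown, where replicate 3 was the 40.1 and the other 2 reached 26.7. The alpha sums did not overlap in the hairpin comparisons, with ratios of 1.44, 1.71 and 1.29 for shD3 #1, deep shD3 #1 and shD3 #4, and overlapped in siD3 #3, where the controls were at 60.2 and 84.2 CPM. The beta sums had ratios of 1.16 in shD3 #1, with overlap, 1.40 in the deep libraries, 1.33 in shD3 #4 and 1.78 in siD3 #3, where the controls were both at 13.8 to 13.9 CPM and the knockdown at 24.0 to 25.1. The cluster with the highest ratio was thus gamma for shD3 #1 and beta for siD3 #3, while in shD3 #4 beta (1.33) and alpha (1.29) were close. These sums were not tested, and a few abundant genes carry them.

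**Figure D4:**
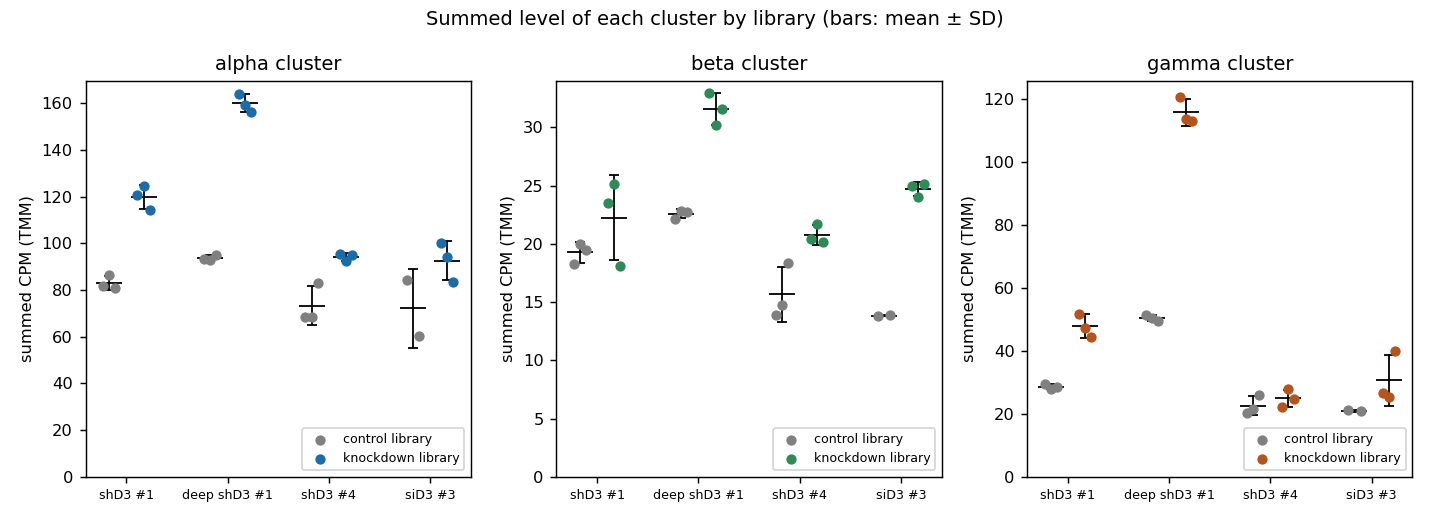
Summed CPM of the alpha, beta and gamma clusters (1 panel each, y axis) in every library of the 4 comparisons (x axis), with points for libraries and bars for the mean ± SD of control and knockdown groups. The gamma sum moves from 49.5 to 51.4 CPM up to 113 to 121 in the deep shD3 #1 libraries and overlaps between groups in shD3 #4.

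The first and the deep libraries used the same hairpin, and 0 protocadherins were called in opposite directions in them. Of the 18 protocadherins called higher in the first shD3 #1 libraries, 17 were called higher in the deep ones, and the exception was PCDHB6, with 0.47 ± 0.17 (edgeR's adjusted p = 0.0247). Another 11 were called higher in the deep libraries after having too few reads to be tested in the first, and a further 11 had been tested there and not called. The matching shares over all genes were not counted, so these counts cannot be read as particular to the protocadherins. The deep log2 fold changes also tended to lie higher. Over the 38 protocadherins tested in both, the deep minus the first log2 fold change had a median of 0.449 and was above 0 for 34, while over all 13871 genes tested in both the median was 0.0207 and 7297 were above 0. The 2 tables differ in depth and in the genes listed and were normalised separately, and the difference between them was not tested. The alpha sum in controls, 80.9 to 86.3 CPM in the first and 92.8 to 95.0 in the deep libraries, and the gamma sum differed between the tables before any knockdown.

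**Figure D5:**
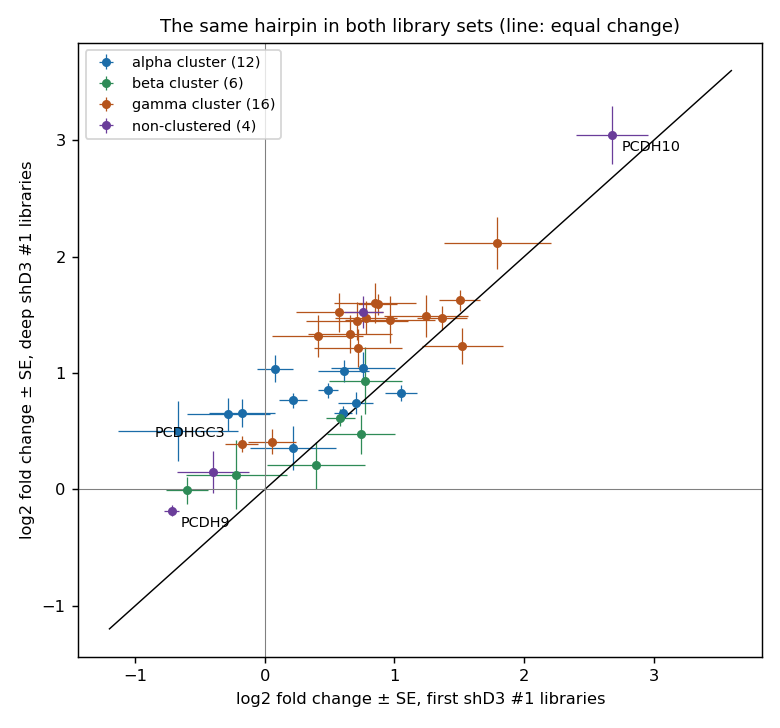
Log2 fold change ± SE of each protocadherin tested in both sets of shD3 #1 libraries, in the first (x axis) and in the deep libraries (y axis), with colours for alpha, beta, gamma and non-clustered genes and a line where both are equal. Of the 38 genes, 34 lie above the line, PCDH10 at 2.68 and 3.04, and PCDH9 has the lowest values at -0.72 and -0.18.

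Whether the 3 knockdowns of the first table differed in their effect was tested with the interaction of knockdown type and condition. It passed for 16 of 49 protocadherins tested (32.7%), where 52.4% of all 18672 genes passed, a smaller share among the protocadherins than over all genes. By group it passed for 4 of 15 alpha, 4 of 10 beta and 4 of 18 gamma genes, and for PCDH1, PCDH7, PCDH9 and PCDH18 among the non-clustered. Many protocadherins had few counts, which makes a difference harder to detect. The smaller share therefore does not show that their effects were more alike than those of other genes.

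CTCF, cohesin and silencing factors act on the clustered promoters in neurons, and a list of 28 such regulators was looked at beside the protocadherins. Of those tested, 9 of 27 were called lower in shD3 #1, 1 of 26 in the deep libraries, 1 of 27 in shD3 #4 and 10 of 27 in siD3 #3, where 14.6%, 14.1%, 4.5% and 9.42% of all genes were. Without siD3 #3 replicate 3 it was 12 of 27, where 10.9% of all genes were. EdgeR and DESeq2 both called 0 higher in all 4, with 0, 4, 4 and 1 higher at an unadjusted p below 0.05. CTCF, which binds the promoters of alternately used clustered genes, fell by 0.60 ± 0.08 in shD3 #1, and its changes in the deep libraries, shD3 #4 and siD3 #3 were -0.33, -0.17 and -0.58, below 1.5-fold. RAD21, a cohesin subunit, fell by 0.78 ± 0.06 in shD3 #1 and by 1.27 ± 0.09 in siD3 #3, with -0.34 in the deep libraries and -0.36 in shD3 #4. SMCHD1, a silencing protein whose loss is known to raise clustered protocadherins, fell by 0.66 ± 0.11 in siD3 #3, with -0.49, -0.10 and -0.20 in shD3 #1, the deep libraries and shD3 #4. Without siD3 #3 replicate 3 the changes of CTCF, RAD21 and SMCHD1 were -0.58, -1.30 and -0.77. The part of these regulators in the protocadherin levels was not tested.

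Among 26 partners of protocadherin signalling, such as the WAVE complex and the proteases that cleave protocadherins, 2 of 25 tested were higher and 5 lower in shD3 #1, 1 and 4 of 26 in the deep libraries, 2 and 1 of 25 in siD3 #3, and 0 of 25 in shD3 #4 with either tool, where 5 were higher and 6 lower at an unadjusted p below 0.05. Over all genes 14.5% were higher and 14.6% lower in shD3 #1, 15% and 14.1% in the deep libraries, 12.5% and 9.42% in siD3 #3 and 8% and 4.5% in shD3 #4, so most of these shares of partners were below those of all genes. Of 47 other cadherins, 6 of 27 tested were higher and 3 lower in shD3 #1, 13 and 3 of 35 in the deep libraries, 10 and 1 of 30 in shD3 #4, and 10 and 0 of 34 in siD3 #3 (15 and 0 of 32 without replicate 3, with 18 and 1 at an unadjusted p below 0.05). Their shares called higher were above those of all genes just given in each comparison and their shares called lower below them. In the same order, 1, 3, 4 and 11 of the tested ones reached the count minimum through the knockdown libraries alone. Through the controls alone it was 1, 1, 1 and 0, so these shares lean upwards, most of all in siD3 #3. The 0 lower in siD3 #3 was also 0 with DESeq2 and at an unadjusted p below 0.05. CLSTN2, a calsyntenin, was the one gene of the 3 lists called in the same direction in all 3 knockdowns of the first table, with rises of 0.81, 0.91 and 3.12, while the deep shD3 #1 libraries gave -0.02 ± 0.20. The classical cadherins CDH1 and CDH2 were called with 1 hairpin: in shD3 #1 and its deep libraries CDH1 fell by 1.39 in each and CDH2 rose by 0.90 and 1.18, and neither was called in shD3 #4 (0.30 and 0.07). In siD3 #3 CDH1 was at 86.2 and 87.0 CPM in the controls and 153, 148 and 71.1 in the knockdown, with replicate 3 below the controls and the other 2 above. CDH1 was not called there with all libraries (0.52 ± 0.29, edgeR's adjusted p = 0.211), and without replicate 3 it was called higher (0.79 ± 0.08, adjusted p = 3.73e-05), while CDH2 was not called in either fit (0.06 and -0.07).

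Markers of cell types other than epithelium were low throughout. The 5 neuronal markers, of which 3 had reads, summed to 17.7 to 19.3 CPM in sh1Control and 12.4 to 14.8 in shD3 #1, 24.8 to 29.1 against 20.3 to 24.1 in the deep libraries, 14.8 to 17.6 against 20.1 to 23.4 for shD3 #4 and 9.77 to 16.4 against 8.76 to 10.7 for siD3 #3. In shD3 #1 and the deep libraries SYP fell by 1.32 and 2.12 on the log2 scale, while ELAVL3 went from 1, 1 and 2 counts in sh1Control to 18, 13 and 12 in shD3 #1, where it was called higher, and had 5 to 8 counts in every deep library. The 4 fibroblast markers summed to 1.97 to 2.87 against 3.01 to 4.26 CPM, 0.408 to 0.496 against 2.02 to 2.34, 1.38 to 2.16 against 4.36 to 6.10, and 0.490 to 0.901 against 2.40 to 2.64 in the same order. LUM was called higher in all 4 comparisons and PDGFRA in the deep libraries as well (0.97 ± 0.33, edgeR's adjusted p = 0.0198), while DCN had 0 or 1 count per library. The part of the neuronal and fibroblast markers in the protocadherin levels was not tested.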

How the data were processed

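The deposited files hold raw counts per gene, which the authors obtained by rRNA-depleted, directional RNA-seq, trimming with Trimmomatic 0.40 and counting reads that overlap 1 gene with STAR 2.7.10a on GRCh38.p14. The annotation named in the study's methods is RefSeq, whereas the identifiers of the first table are Ensembl's, and which strand column was deposited is not given in the sources used here.

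Each knockdown was compared with its own control, within 1 table, from the counts as deposited. Genes past filterByExpr were scaled by TMM and tested with the quasi-likelihood test of edgeR 4.0.16 in R 4.3.3, with p-values adjusted by Benjamini-Hochberg over all genes tested. A call needed an adjusted p below 0.05 and a change of 1.5-fold. Differences between knockdowns were tested by an interaction over the 17 libraries of the first table. Other settings were DESeq2 1.42.0, its size factors in edgeR, a minimum of 1 count, 1 fit of all 17 libraries, a replicate block and each library left out. The tests were also run on counts simulated from the fitted model, with changes placed only in well-counted genes. Such a run does not show how the tests behave for genes with few counts, such as PCDHGA12. P-values measure the spread between the libraries, which are labelled as biological replicates.

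The genes named are every non-clustered protocadherin tested at least once, clustered ones called in at least 2 comparisons, the gene with the most control reads in each cluster, genes of the 3 lists called in the same direction in all 3 knockdowns of the first table, and CTCF, RAD21, SMCHD1, CDH1, CDH2 and THUMPD3. Others are named as having been chosen after their values were seen, or because a test of a difference passed. The protocadherins, lists and motifs were chosen with earlier results of these data known. Promoter sequences are RefSeq's for GRCh38.p14, and a floor of 3 counts, covering counting error only, stood in for groups at 0.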

Additional observations from a re-analysis of the deposited data

Results flagged for a closer look

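The effect of THUMPD3 depletion differed between shD3 #1, shD3 #4 and siD3 #3 for 16 protocadherins by the interaction test of edgeR, with p adjusted over all 18672 genes tested, of which 52.4% passed. Among the non-clustered genes the adjusted p was 1.47e-07 for PCDH9, which was lower in shD3 #1 and siD3 #3 and not in shD3 #4. It was 6.22e-07 for PCDH1, which was higher in shD3 #1 and siD3 #3 and not in shD3 #4. It was 0.000181 for PCDH7, higher in shD3 #4 and siD3 #3, and 0.0241 for PCDH18, which had 33 counts in shD3 #4 and 7 in its control.

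In the alpha cluster the adjusted p was 0.000385 for PCDHAC2, 0.00624 for PCDHA10, 0.0198 for PCDHA12 and 0.0252 for PCDHA7, whose effect in siD3 #3 exceeded that in shD3 #1 by 2.50 ± 0.75 on the log2 scale. In the beta cluster it was 0.0192 for PCDHB5, 0.0345 for PCDHB8, 0.0361 for PCDHB6 and 0.0374 for PCDHB11. PCDHB8 had a larger effect in siD3 #3 than in shD3 #1, by 2.03 ± 0.64. In the gamma cluster it was 0.0025 for PCDHGB4, 0.0032 for PCDHGB5, 0.0158 for PCDHGA9 and 0.0475 for PCDHGB2. PCDHGA9 had a larger effect in shD3 #1 than in shD3 #4, by 1.73 ± 0.52, and PCDHGB2 a larger one in siD3 #3 than in shD3 #4, by 2.09 ± 0.73.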

How the results depend on the processing

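Over the settings tried, the log2 fold changes of the named protocadherins gave 1009 values with the call unchanged, 72 with the call lost, 9 with a call gained and 0 with a called direction reversed. With 1 library left out, the number called higher ran from 13 to 22 for shD3 #1, from 35 to 40 for deep shD3 #1, from 6 to 11 for shD3 #4 and from 6 to 14 for siD3 #3. The number called lower ran from 1 to 3 in shD3 #1, where it was 1 without sh1Control replicate 1 or 3 or shD3 #1 replicate 3, and it ran from 0 to 1 for each of shD3 #4 and siD3 #3. It was 1 in shD3 #4 without sh4Control replicate 1, and 0 in siD3 #3 without siD3 #3 replicate 2. The number with an effect that differed between knockdowns ran from 12 to 17. DESeq2 called 9 higher in siD3 #3. Other settings moved no count of calls by more than 1.5 times, apart from the replicate block.

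Same-numbered libraries correlated by -0.108 to 0.142 in their deviations from the group means (11 pairs), and differently numbered ones by -0.175 to 0.175 (22 pairs), so the numbers were not taken to pair them. With the replicate block, 17 protocadherins were called higher and 2 lower for shD3 #1. The counts were 38 and 0 for deep shD3 #1, then 7 and 0 for shD3 #4, then 16 and 0 for siD3 #3, where PCDH9 was at -0.585, and 15 differed between knockdowns.

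The first table held too few reads for 27 of the 65 protocadherins in shD3 #1, and a deeper sequencing left 10 untested. The siRNA comparison has 2 controls, and without either of them a single control is assumed to vary like the knockdown group. Alpha and gamma counts rest on the variable exons, and reads shared by near-identical genes were not counted. Levels of the 2 tables come from separate normalisations.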
